A study of Mus musculus with 12 samples.

Results

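The 34 genes described here are genes that macrophages and other myeloid cells are known for, read out in bulk RNA sequencing of mouse calvarial osteoblast cultures. They were taken as a named list and matched by symbol to Ensembl mouse IDs. Each of the 34 matched 1 ID among the 49585 genes of the count table, and all 34 passed the filter on low counts that left 16318 genes to test. Their level in each library describes what the cultures held besides osteoblasts. The cultures came from the calvariae of C57BL/6J pups at postnatal days 3 to 5, with 1 to 3 calvariae per biological replicate in the labels and 3 in the study's methods, and the digested cells were expanded before osteogenic induction. There were 4 groups of 3 libraries: day 3 Bcl3-/-, day 3 WT, day 1 Bcl3-/- and day 1 WT, where day is the time after induction. All of them, WT included, received 50 μg/mL L-ascorbic acid and 2 mM β-glycerophosphate. Bcl3-/- stands for a knockout of Bcl3, an atypical IκB protein that binds NF-κB p50 and p52 dimers in the nucleus.

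Macrophages settle in most tissues from embryonic and blood-borne precursors, and live on signals through the CSF1 receptor, whose ligand CSF1 osteoblasts and other stromal cells secrete. Those that lie along bone surfaces next to osteoblasts are often called osteomacs, and osteoclasts arise from the same myeloid lineage. Calvarial digests carry hematopoietic cells over into osteoblast cultures, where macrophages adhere to plastic and can persist. Their transcripts fall into recognizable kinds: scavenger and phagocytic receptors, Fc receptors with their signaling adaptors, the 3 chains of complement C1q, lysosomal enzymes, and a set of surface and actin-binding proteins that nearly all leukocytes share. In bulk RNA, fewer cells of a type and less RNA per cell cannot be told apart, and that holds for every value below.

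The libraries held between 20009732 and 41953891 reads counted in genes (median 31792039). Levels are given as CPM, the reads of a gene scaled by TMM to a common library size, in the order of replicates 1, 2 and 3. As a check of the cell type, 12 osteoblast markers, all of them tested, summed to between 34176 and 77996 CPM, nearly all of it Col1a1, Col1a2 and Spp1, which other stromal cells also express. The osteoblast transcription factor Runx2 had a median of 51.7 CPM, and Sp7, Alpl and Pth1r had medians of 23.6, 52.1 and 73.9 CPM. Ibsp (5.33) and Bglap2 (1.81 CPM) were lower, and the late markers Bglap (0.707), Dmp1 (0.657) and Phex (1.19 CPM) were near the lower limit. Bcl3 itself was at 10.2, 9.72 and 8.31 CPM in day 3 Bcl3-/-, 14.8, 15.9 and 12.8 in day 3 WT, 17.5, 19.7 and 19.2 in day 1 Bcl3-/- and 18.0, 21.8 and 17.8 in day 1 WT libraries. Its level thus separated the genotypes on day 3 and overlapped on day 1, and since the sources used here do not say which part of the gene was deleted, genotype is taken from the labels throughout.

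Macrophage transcripts were a small share of every library. The 34 genes together took between 0.0565% and 0.162% of the reads in genes. On the FPKM scale, which divides by transcript length and so allows levels to be compared between genes, Lyz2 stood far above the others with a mean of 399.6 FPKM over the 12 libraries. The next were C1qb (30.7 FPKM), Tyrobp (26.1), Fcer1g (23.3), Ctss (23.0), Lcp1 (22.4), Cd52 (22.2) and C1qa (21.7). The lowest were Fcgr1 (1.60), Cx3cr1 (1.35) and Cd163 (0.216 FPKM). None of the 34 was at 0 in any library, although single counts became small: Cx3cr1 had 4 reads in day 3 Bcl3-/- replicate 3.

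The summed level of the 34 genes was 1338, 913 and 663 CPM in day 3 Bcl3-/-, 1225, 1217 and 1667 in day 3 WT, 588, 640.3 and 707 in day 1 Bcl3-/- and 694, 539.8 and 812 in day 1 WT libraries. Every day 3 WT library lay above every day 1 WT library. Among Bcl3-/- cultures the groups overlapped, because replicate 3 stayed at 663 CPM on day 3, below the 707 CPM of replicate 3 on day 1. As ratios of group means on the log2 scale, day 3 over day 1 was 0.59 in Bcl3-/- cultures and 1.01 in WT cultures, and Bcl3-/- over WT was -0.50 on day 3 and -0.08 on day 1. No test was run on these sums. The genotypes overlapped on both days, and the day 3 Bcl3-/- libraries had a coefficient of variation of 35.1%, against 18.8% in day 3 WT, 9.30% in day 1 Bcl3-/- and 20.0% in day 1 WT libraries. Lyz2 alone made up between 40.0% and 51.7% of each sum. Without it, the other 33 genes summed to 689.9, 441 and 340.1 CPM in day 3 Bcl3-/-, 725, 662 and 867 in day 3 WT, 295, 371 and 410.1 in day 1 Bcl3-/- and 416, 312 and 437 in day 1 WT libraries, and the same groups overlapped.

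**Figure D1:**
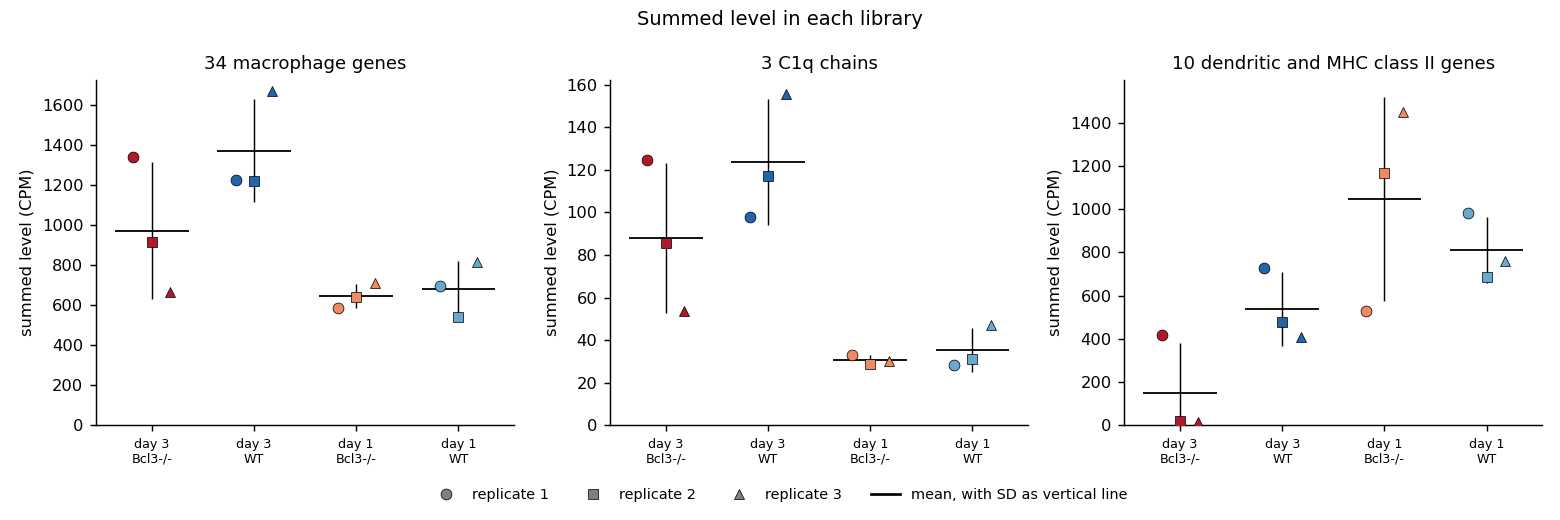
Summed level in CPM (linear axes from 0) of the 34 macrophage genes, of the 3 C1q chains and of 10 dendritic cell and MHC class II genes in each of the 12 libraries. Points are libraries, horizontal lines group means and vertical lines SD (cut at 0, n = 3); the C1q sum was higher on day 3 in both genotypes with no overlap, while the dendritic and MHC class II sum in day 3 Bcl3-/- libraries was 416 CPM in replicate 1 and 20.5 and 15.6 CPM in the others.

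Over time, more of the 34 genes were called higher than lower in either genotype. In Bcl3-/- cultures 16 of the 34 were higher on day 3 and 3 were lower (edgeR quasi-likelihood test, Benjamini-Hochberg adjusted p under 0.05), where 16.2% of all genes tested were higher and 17.2% lower. In WT cultures 25 were higher, where 20.6% of all genes tested were higher and 17.9% lower, and the other 9 did not pass the test. The median log2 fold change over the 34 genes was 0.58 in Bcl3-/- cultures and 1.09 in WT cultures. The median over all genes tested was 0.00 in Bcl3-/- and 0.00 in WT cultures. The genes higher in both genotypes numbered 16: Adgre1, C1qa, C1qb, C1qc, Cd68, Cd84, Csf1r, Fcgr1, Fcgr3, Lyz2, Mpeg1, Mrc1, Ms4a7, Msr1, Pf4 and Trem2. Another 8 were called higher in WT cultures and not called in Bcl3-/- cultures, namely Cd163, Cd53, Cybb, Fcer1g, Fcgr2b, Itgam, Itgb2 and Lcp1. Cd52 and Coro1a fell in Bcl3-/- cultures and were not called in WT cultures. Cx3cr1 was lower on day 3 in Bcl3-/- cultures and higher in WT cultures, and 7 genes (Aif1, Cd14, Ctss, Laptm5, Ptprc, Spi1 and Tyrobp) were called in neither. Of the calls, 11 of the 19 in Bcl3-/- cultures and 16 of the 25 in WT cultures held whichever 1 of the 12 libraries was left out. In Bcl3-/- cultures the split moved further, to 11 higher and 7 lower on dropping Bcl3-/- replicate 1 of day 3, and to 17 or 13 higher and 0 lower on dropping Bcl3-/- replicate 3 of day 3 or of day 1. On dropping Bcl3-/- replicate 2, it was 13 higher and 1 lower for day 3 and 11 higher and 1 lower for day 1. The count in WT cultures was 16 on dropping either WT replicate 3 of day 3 or WT replicate 2 of day 1. The number higher over all genes tested in WT cultures moved from 3360 to 2490 and 2385 on dropping these. For the Bcl3-/- libraries named, it moved from 2644 to between 1989 and 2548. The number lower moved from 2810 to between 2084 and 2904.

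**Figure D2:**
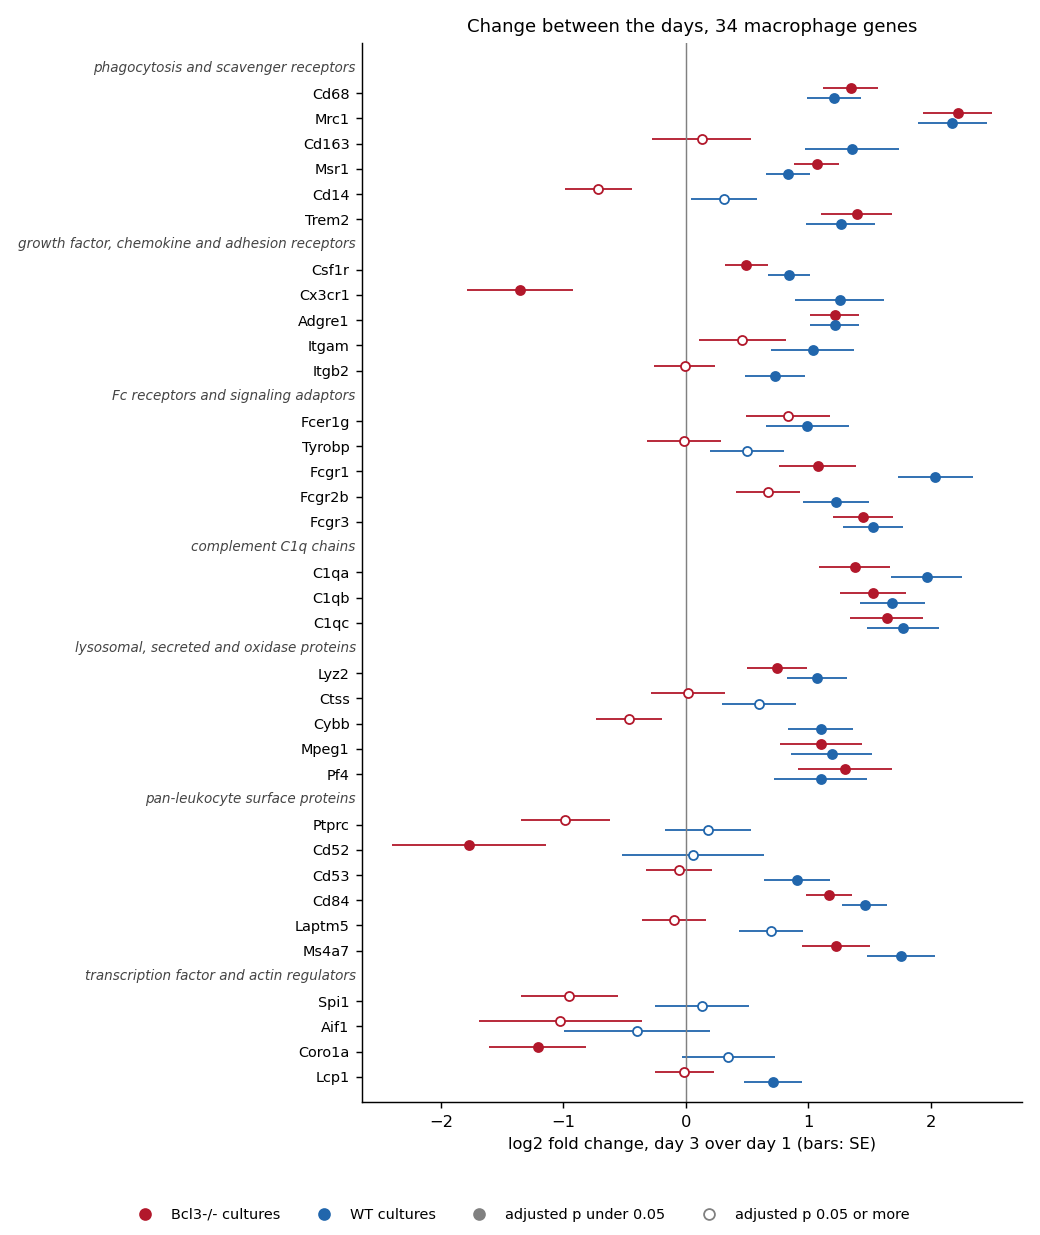
Log2 fold change, day 3 over day 1, of the 34 macrophage genes in Bcl3-/- (red) and WT cultures (blue), grouped by role, with bars for the standard error and filled points for adjusted p under 0.05. The C1q chains and most scavenger receptors lay to the right of 0 in both genotypes, while the transcription factor and actin regulators lay at or left of 0 in Bcl3-/- cultures.

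The upstream sequence of 3 genes is shown for the 2 patterns these counts separate: Mrc1 and C1qc, which were higher on day 3 in both genotypes, and Cx3cr1, whose change had opposite signs. PU.1, the product of Spi1 and the master transcription factor of the myeloid lineage, binds purine-rich sites with the core GAGGAA, which is TTCCTC on the other strand. In the RefSeq promoter table, on GRCm38.p6, 25 of the 34 genes had an entry. The 250 bases before the RefSeq start held GAGGAA on either strand in 14 of the 25 genes (56%), against 25.9% of the 27025 genes of that table over windows of the same length. The longer forms GAGGAAGT and AGAGGAAG, which contain the core, were in 2 (8%) and 4 (16%) of the 25, against 2.79% and 4.27% of all genes, and CACTTCCTC, whose reverse complement GAGGAAGTG extends GAGGAAGT by 1 letter, was in 2 (8%), against 1.24%. The TATA box TATAAA was in 3 (12%), against 14.3%. The C/EBP site TTGCGCAA, the NF-κB site of the immunoglobulin κ enhancer and the NF-κB site GGGAATTCC were in 0 of 25, against 0.185%, 0.159% and 0.233%. Those 8 motifs were all that were searched, and a match is a description of letters only. The 14 genes with GAGGAA did not share 1 pattern over time. C1qb, C1qc, Cd68, Fcgr1, Fcgr3, Mrc1, Pf4 and Trem2 were called higher in both genotypes. Cd53 and Itgam were called in WT cultures only, and Aif1, Ctss, Laptm5 and Ptprc in neither genotype. Whether the core goes with a pattern was not tested. In the windows below, given 5′ to 3′ on the strand of the gene, capitals mark GAGGAA or its reverse complement. Mrc1 (chr2:14229164-14229413, plus strand) had 3 matches, C1qc (chr4:136892915-136893164, minus strand) had 1 and Cx3cr1 (chr9:120068297-120068546, minus strand) had 0. GENCODE gene positions differ from the RefSeq starts: by them the Cx3cr1 window lies inside the gene, and those of Mrc1 and C1qc reach into it.
Mrc1: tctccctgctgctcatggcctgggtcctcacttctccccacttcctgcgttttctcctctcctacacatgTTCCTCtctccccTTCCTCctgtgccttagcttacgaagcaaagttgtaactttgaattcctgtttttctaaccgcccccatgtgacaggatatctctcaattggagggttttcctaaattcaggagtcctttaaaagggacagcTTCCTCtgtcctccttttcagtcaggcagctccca
C1qc: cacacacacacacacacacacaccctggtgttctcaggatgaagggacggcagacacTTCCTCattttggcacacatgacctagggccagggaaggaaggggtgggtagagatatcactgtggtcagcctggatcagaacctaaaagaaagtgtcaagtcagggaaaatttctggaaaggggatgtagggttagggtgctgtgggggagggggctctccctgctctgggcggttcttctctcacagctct
Cx3cr1: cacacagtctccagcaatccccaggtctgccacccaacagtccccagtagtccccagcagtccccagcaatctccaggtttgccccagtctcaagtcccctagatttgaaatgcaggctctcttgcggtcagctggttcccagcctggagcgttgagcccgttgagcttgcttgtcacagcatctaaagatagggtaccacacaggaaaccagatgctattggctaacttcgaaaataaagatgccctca

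Complement C1q is a hexamer of trimers built from the A, B and C chains, and unlike most complement proteins, which the liver makes, it comes largely from macrophages and dendritic cells. Its 3 genes were the most uniform group: all 3 were higher on day 3 in both genotypes and in each of the 6 cultures. Of all genes tested, 16.2% were called higher in Bcl3-/- and 20.6% in WT cultures. C1qb (ENSMUSG00000036905, chr4:136880129-136886187 on GRCm38, minus strand) was at 51.8, 34.5 and 24.2 CPM in day 3 Bcl3-/-, 37.8, 45.6 and 63.3 in day 3 WT, 14.8, 11.6 and 12.0 in day 1 Bcl3-/- and 12.6, 13.5 and 19.3 in day 1 WT libraries. C1qa (chr4:136895917-136898803, minus strand) was at 31.8, 22.1 and 13.6 CPM in day 3 Bcl3-/-, 29.1, 34.1 and 43.8 in day 3 WT, 8.92, 8.22 and 8.93 in day 1 Bcl3-/- and 6.60, 7.81 and 12.7 in day 1 WT libraries. C1qc (chr4:136889804-136893065, minus strand, with the upstream window given above) was at 40.9, 28.9 and 16.1 CPM in day 3 Bcl3-/-, 31.0, 37.2 and 48.6 in day 3 WT, 9.18, 9.00 and 9.52 in day 1 Bcl3-/- and 8.91, 9.86 and 15.3 in day 1 WT libraries. For none of the 3 did a day 3 library of either genotype overlap a day 1 library of the same genotype, and day 3 Bcl3-/- replicate 3 was the lowest of the day 3 libraries for all 3. In Bcl3-/- cultures the log2 fold changes were 1.38 ± 0.29 for C1qa, 1.53 ± 0.27 for C1qb and 1.64 ± 0.30 for C1qc (SE), and in WT cultures they were 1.97 ± 0.29, 1.69 ± 0.27 and 1.77 ± 0.29. Their adjusted p-values by edgeR ranged from 0.00120 to 0.00354 in Bcl3-/- and from 2.56e-04 to 5.50e-04 in WT cultures.

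Among the phagocytic and scavenger receptors, 4 of 6 were higher on day 3 in Bcl3-/- cultures and 5 of 6 in WT cultures. The shares over all genes tested were 16.2% and 20.6%. Mrc1, the mannose receptor that takes up glycoproteins and is known for tissue-resident macrophages, had the largest change of the 34 genes in either genotype. It was at 56.2, 42.3 and 38.6 CPM in day 3 Bcl3-/-, 32.6, 31.6 and 55.5 in day 3 WT, 12.4, 8.80 and 8.07 in day 1 Bcl3-/- and 8.46, 6.08 and 12.0 in day 1 WT libraries. That was a log2 fold change of 2.22 ± 0.28 in Bcl3-/- cultures (adjusted p = 1.40e-04, edgeR) and 2.18 ± 0.28 in WT cultures (adjusted p = 1.14e-04), and the 2 genotypes overlapped on both days. Cd68, a glycoprotein of late endosomes and lysosomes, was at 37.9, 25.8 and 18.1 CPM in day 3 Bcl3-/-, 24.5, 27.0 and 32.9 in day 3 WT, 9.46, 11.1 and 11.8 in day 1 Bcl3-/- and 11.5, 11.0 and 14.0 in day 1 WT libraries. Trem2, a lipid-sensing receptor that signals through Tyrobp, was at 8.52, 6.06 and 4.42 CPM in day 3 Bcl3-/-, 5.81, 6.32 and 9.83 in day 3 WT, 2.91, 2.25 and 2.08 in day 1 Bcl3-/- and 2.40, 2.69 and 3.99 in day 1 WT libraries. For both, every day 3 library exceeded every day 1 library of its genotype. Msr1, the class A scavenger receptor that takes up modified lipoproteins, was at 20.0, 14.0 and 11.2 CPM in day 3 Bcl3-/-, 25.4, 22.0 and 30.3 in day 3 WT, 7.71, 7.06 and 6.82 in day 1 Bcl3-/- and 15.7, 13.4 and 14.5 in day 1 WT libraries. It was lower in Bcl3-/- than in WT libraries on both days with no overlap, and higher on day 3 than on day 1 in both genotypes. The hemoglobin scavenger receptor Cd163 was close to the lower limit of the data, at 0.813, 0.745 and 0.736 CPM in day 3 Bcl3-/-, 1.20, 1.17 and 1.88 in day 3 WT, 0.632, 0.818 and 0.659 in day 1 Bcl3-/- and 0.317, 0.319 and 0.985 in day 1 WT libraries, with 7 to 75 reads per library. It passed the test in WT cultures (1.36 ± 0.39, adjusted p = 0.0151). Dropping WT replicate 3 of day 3, or replicate 1 or 2 of day 1, ended that call (adjusted p = 0.0600 to 0.0787). Cd14, the lipopolysaccharide co-receptor, was at 6.83, 4.27 and 3.84 CPM in day 3 Bcl3-/-, 7.35, 8.10 and 9.53 in day 3 WT, 5.03, 9.20 and 10.6 in day 1 Bcl3-/- and 6.47, 5.81 and 7.88 in day 1 WT libraries. Its values overlapped between the days in both genotypes, and all 3 day 3 Bcl3-/- libraries were below all 3 day 3 WT libraries without passing the test (adjusted p = 0.110).

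Lysosomal, secreted and oxidase genes were called higher on day 3 in 3 of 5 cases in Bcl3-/- cultures and in 4 of 5 in WT cultures. Of all genes tested, 16.2% and 20.6% were called higher. Lyz2, the lysozyme of macrophages and other myeloid cells, was at 648, 472 and 323 CPM in day 3 Bcl3-/-, 499.9, 555 and 800.1 in day 3 WT, 293, 269 and 297 in day 1 Bcl3-/- and 278, 228 and 375 in day 1 WT libraries. How reads that fit both it and its close paralog Lyz1 were counted is not given in the sources used here, so its level is uncertain to that extent. All day 3 libraries of Bcl3-/- and of WT cultures exceeded the day 1 libraries of the same genotype, by 0.75 ± 0.24 on the log2 scale in Bcl3-/- (adjusted p = 0.0335) and 1.08 ± 0.25 in WT cultures (adjusted p = 0.00444). The Bcl3-/- call ended on dropping any 1 of 5 Bcl3-/- libraries, replicates 1 and 2 of day 3 and all 3 of day 1 (adjusted p = 0.0695 to 0.145). Mpeg1, which encodes the pore-forming perforin-2, was at 21.8, 10.3 and 8.73 CPM in day 3 Bcl3-/-, 18.6, 13.1 and 24.2 in day 3 WT, 7.18, 5.66 and 6.23 in day 1 Bcl3-/- and 9.86, 5.60 and 9.24 in day 1 WT libraries. The platelet and macrophage chemokine Pf4 was at 4.39, 3.85 and 2.26 CPM in day 3 Bcl3-/-, 2.01, 4.60 and 4.16 in day 3 WT, 2.28, 0.989 and 0.955 in day 1 Bcl3-/- and 1.49, 1.71 and 1.81 in day 1 WT libraries. Both were called higher in either genotype. For Mpeg1, dropping Bcl3-/- replicate 1 of day 3 or replicate 2 or 3 of day 1 ended the Bcl3-/- call (adjusted p = 0.0674 to 0.130). Dropping WT replicate 3 of day 3 or replicate 2 of day 1 ended its WT call (adjusted p = 0.0642 to 0.0645). For Pf4 the Bcl3-/- call needed replicates 1 and 2 of day 3 and replicates 2 and 3 of day 1 (adjusted p = 0.0637 to 0.0843 on dropping 1 of them). Its WT call needed replicates 2 and 3 of day 3 and all 3 of day 1 (adjusted p = 0.0706 to 0.124). Ctss, the cathepsin that trims the MHC class II invariant chain, was at 36.8, 20.8 and 14.1 CPM in day 3 Bcl3-/-, 38.2, 32.8 and 40.9 in day 3 WT, 17.3, 25.0 and 29.2 in day 1 Bcl3-/- and 32.1, 18.3 and 23.9 in day 1 WT libraries. Its WT libraries did not overlap between the days, without passing the test (adjusted p = 0.140). Cybb, the membrane subunit of the phagocyte NADPH oxidase, was at 7.93, 5.83 and 4.89 CPM in day 3 Bcl3-/-, 15.9, 12.7 and 17.4 in day 3 WT, 6.24, 9.72 and 10.1 in day 1 Bcl3-/- and 6.92, 4.76 and 9.77 in day 1 WT libraries. It rose in WT cultures (1.10 ± 0.26, adjusted p = 0.00590), and in Bcl3-/- cultures its log2 fold change was -0.47 ± 0.27 (adjusted p = 0.208).

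Of the 5 growth factor, chemokine and adhesion receptors, all 5 were higher on day 3 in WT cultures, and in Bcl3-/- cultures 2 were higher and 1 was lower. The shares over all genes tested were 20.6% higher in WT cultures and 16.2% higher and 17.2% lower in Bcl3-/- cultures. Csf1r, the receptor for CSF1 and IL-34 on which macrophages depend, was at 33.9, 23.5 and 22.1 CPM in day 3 Bcl3-/-, 51.3, 41.2 and 55.9 in day 3 WT, 16.7, 20.5 and 19.5 in day 1 Bcl3-/- and 26.5, 23.7 and 32.5 in day 1 WT libraries. Every Bcl3-/- library was below every WT library of the same day. Its rise over time was 0.49 ± 0.18 in Bcl3-/- cultures (adjusted p = 0.0471) and 0.84 ± 0.17 in WT cultures (adjusted p = 0.00219). The Bcl3-/- call ended on dropping any 1 of 7 libraries (adjusted p = 0.0509 to 0.218). These were Bcl3-/- replicate 1 of day 3, the day 1 Bcl3-/- libraries, WT replicates 1 and 3 of day 3 and WT replicate 1 of day 1. Csf1r overlaps Hmgxb3 on the opposite strand, and as the library kit does not mark strand, reads from the shared part cannot be told apart. Adgre1, which encodes the F4/80 antigen of mouse macrophages, was at 28.9, 20.8 and 19.8 CPM in day 3 Bcl3-/-, 25.6, 24.2 and 35.2 in day 3 WT, 11.1, 9.85 and 8.96 in day 1 Bcl3-/- and 12.8, 9.38 and 14.6 in day 1 WT libraries. Its change was nearly the same in both genotypes, 1.22 ± 0.20 in Bcl3-/- and 1.22 ± 0.20 in WT cultures. Itgam and Itgb2 encode the chains of the integrin CD11b/CD18. Itgam was at 3.97, 2.82 and 2.52 CPM in day 3 Bcl3-/-, 4.86, 3.25 and 7.27 in day 3 WT, 1.59, 2.59 and 2.67 in day 1 Bcl3-/- and 2.04, 1.80 and 3.65 in day 1 WT libraries. Itgb2 was at 16.5, 8.68 and 9.78 CPM in day 3 Bcl3-/-, 19.3, 16.9 and 18.7 in day 3 WT, 9.43, 11.8 and 14.1 in day 1 Bcl3-/- and 11.0, 8.13 and 14.1 in day 1 WT libraries. Both passed the test in WT cultures. Dropping WT replicate 3 of day 3 or WT replicate 1 or 2 of day 1 ended the Itgam call (adjusted p = 0.105 to 0.162). The same 3 libraries ended the Itgb2 call, as did WT replicates 1 and 2 of day 3 and Bcl3-/- replicate 2 of day 1 (adjusted p = 0.0501 to 0.149).

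Cx3cr1, the fractalkine receptor of monocytes and many resident macrophages, was the 1 gene of the 34 called in opposite directions in the 2 genotypes. It was at 1.17, 1.36 and 0.210 CPM in day 3 Bcl3-/-, 10.8, 7.55 and 10.4 in day 3 WT, 2.60, 1.77 and 3.10 in day 1 Bcl3-/- and 3.21, 3.03 and 5.73 in day 1 WT libraries, which rests on 4 to 42 reads in day 3 Bcl3-/- libraries and 246 to 414 in day 3 WT libraries. All 3 day 3 Bcl3-/- libraries were below all 9 others. Cx3cr1 fell by 1.36 ± 0.43 on the log2 scale over time in Bcl3-/- cultures (adjusted p = 0.0302, edgeR) and was higher by 1.26 ± 0.36 in WT cultures (adjusted p = 0.0157). Dropping Bcl3-/- replicate 3 of day 3, or replicate 1 or 3 of day 1, ended the Bcl3-/- call (adjusted p = 0.0501 to 0.103). Dropping WT replicate 3 of day 3, or replicate 1 or 2 of day 1, ended the WT call (adjusted p = 0.0533 to 0.0777). The annotated gene (ENSMUSG00000052336, chr9:119901616-120069879 on GRCm38, minus strand) overlaps several others, among them Wdr48 and Gorasp1, so reads from the shared parts are uncertain.

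**Figure D3:**
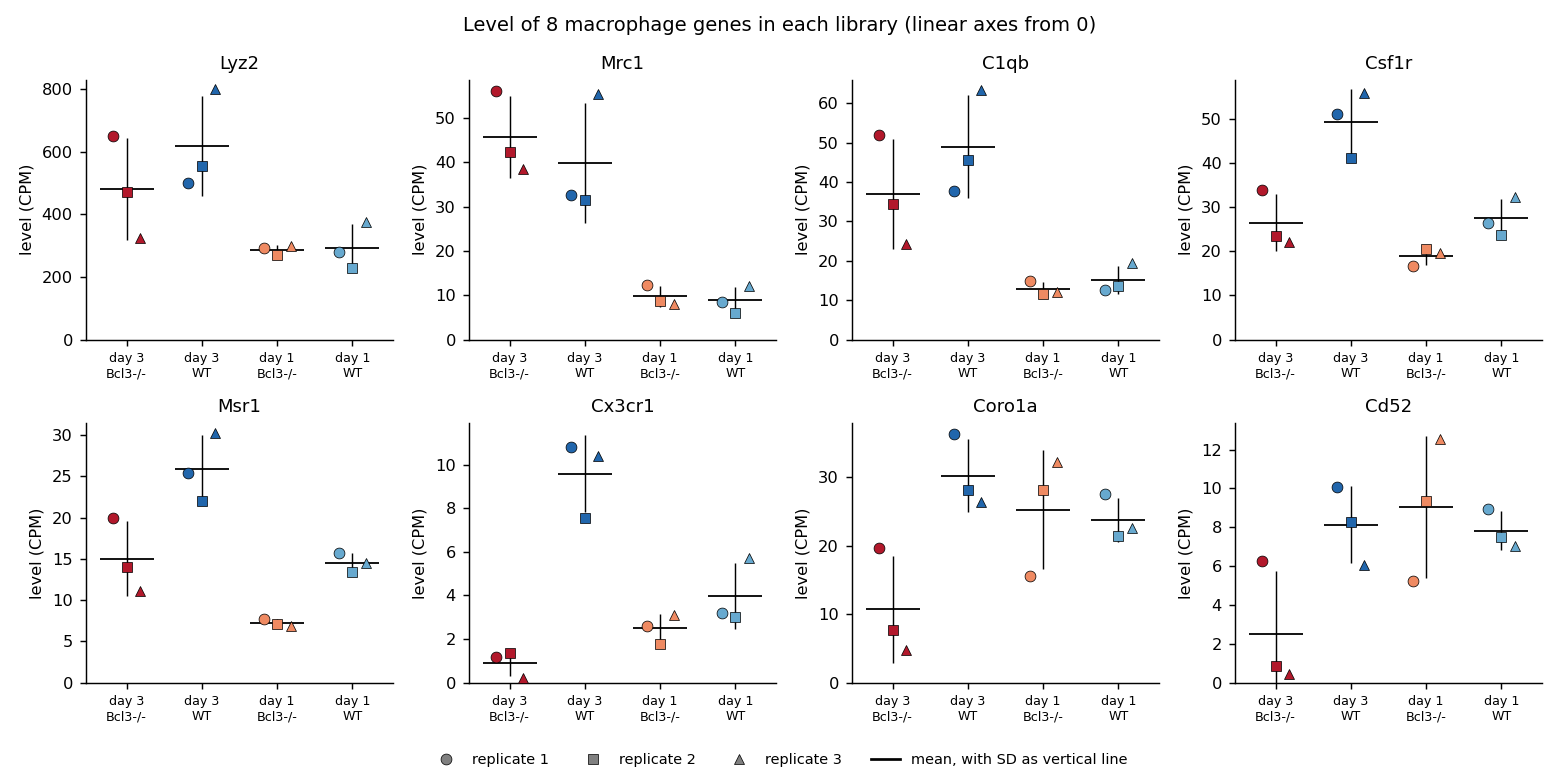
Level in CPM (linear axes from 0) of Lyz2, Mrc1, C1qb, Csf1r, Msr1, Cx3cr1, Coro1a and Cd52 in each of the 12 libraries. Points are libraries, horizontal lines group means and vertical lines SD (cut at 0, n = 3); Csf1r, Msr1, Cx3cr1 and Coro1a were lower in all 3 day 3 Bcl3-/- libraries than in any day 3 WT library, Mrc1 and C1qb overlapped.

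Of the 5 Fc receptor and adaptor genes, 2 were higher on day 3 in Bcl3-/- cultures and 4 in WT cultures. The shares over all genes tested were 16.2% and 20.6%. Fcgr3, a low-affinity activating IgG receptor, was at 16.2, 11.8 and 8.20 CPM in day 3 Bcl3-/-, 10.8, 12.8 and 16.6 in day 3 WT, 4.60, 4.12 and 4.64 in day 1 Bcl3-/- and 4.79, 3.57 and 5.62 in day 1 WT libraries. Fcgr1, the high-affinity IgG receptor CD64, was at 2.34, 2.23 and 1.16 CPM in day 3 Bcl3-/-, 3.66, 3.74 and 4.09 in day 3 WT, 0.834, 0.716 and 1.22 in day 1 Bcl3-/- and 0.814, 0.660 and 1.30 in day 1 WT libraries. Those were the 2 called in both genotypes, and Fcgr1 had the larger log2 fold change in WT cultures, 2.04 ± 0.31 against 1.08 ± 0.32 in Bcl3-/- cultures, a difference that did not pass the interaction test (adjusted p = 0.411). Its Bcl3-/- call ended on dropping Bcl3-/- replicate 1 or 2 of either day (adjusted p = 0.0699 to 0.0807). Fcgr2b, the inhibitory IgG receptor, was at 6.50, 4.92 and 4.42 CPM in day 3 Bcl3-/-, 4.43, 4.17 and 5.17 in day 3 WT, 1.87, 3.85 and 4.35 in day 1 Bcl3-/- and 1.99, 1.89 and 2.02 in day 1 WT libraries. Fcgr2b and Fcgr3 are close paralogs, so the split of reads between them is uncertain. Fcer1g, the common γ chain of activating Fc receptors, was at 21.5, 13.1 and 6.52 CPM in day 3 Bcl3-/-, 10.8, 16.8 and 18.8 in day 3 WT, 6.19, 7.77 and 9.32 in day 1 Bcl3-/- and 7.15, 6.92 and 9.27 in day 1 WT libraries. Tyrobp, the DAP12 adaptor of Trem2 and related receptors, was at 13.5, 9.29 and 4.89 CPM in day 3 Bcl3-/-, 9.89, 12.6 and 13.02 in day 3 WT, 6.40, 10.5 and 11.6 in day 1 Bcl3-/- and 9.18, 7.04 and 9.03 in day 1 WT libraries. In both adaptors day 3 Bcl3-/- replicate 1 was the highest of the 12 libraries and day 3 Bcl3-/- replicate 3 was below every day 3 WT library. Fcer1g passed the test in WT cultures (0.99 ± 0.34, adjusted p = 0.0358), and Tyrobp was called in neither genotype. The Fcer1g call ended on dropping WT replicate 2 or 3 of day 3, WT replicate 1 or 2 of day 1, or Bcl3-/- replicate 2 of day 1 (adjusted p = 0.0544 to 0.128).

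The group named pan-leukocyte surface proteins also holds Ms4a7, known from macrophages, and Laptm5, a lysosomal protein, so the name is loose. It divided into genes called higher in both genotypes and genes that fell or were not called in Bcl3-/- cultures. Ms4a7, a tetraspan protein of macrophages, was at 14.3, 10.4 and 8.42 CPM in day 3 Bcl3-/-, 13.2, 15.9 and 15.6 in day 3 WT, 5.69, 3.41 and 5.11 in day 1 Bcl3-/- and 5.07, 2.64 and 5.65 in day 1 WT libraries. Cd84, a SLAM-family receptor, was at 9.82, 8.91 and 7.05 CPM in day 3 Bcl3-/-, 10.7, 9.45 and 13.8 in day 3 WT, 3.99, 3.82 and 3.69 in day 1 Bcl3-/- and 4.70, 3.21 and 4.53 in day 1 WT libraries. Those 2 rose in both genotypes, by 1.22 ± 0.28 and 1.17 ± 0.19 on the log2 scale in Bcl3-/- and by 1.76 ± 0.28 and 1.46 ± 0.19 in WT cultures. Ptprc, the CD45 phosphatase that marks all nucleated blood cells, was at 13.01, 6.70 and 4.58 CPM in day 3 Bcl3-/-, 23.8, 17.0 and 16.2 in day 3 WT, 11.9, 16.8 and 20.2 in day 1 Bcl3-/- and 23.6, 10.5 and 16.5 in day 1 WT libraries. Cd52, a small GPI-anchored protein of lymphocytes, monocytes and dendritic cells, was at 6.24, 0.842 and 0.473 CPM in day 3 Bcl3-/-, 10.1, 8.29 and 6.07 in day 3 WT, 5.26, 9.34 and 12.6 in day 1 Bcl3-/- and 8.95, 7.51 and 7.03 in day 1 WT libraries. Day 3 Bcl3-/- replicates 2 and 3 were the 2 lowest of the 12 libraries in both genes. Cd52 was lower on day 3 in Bcl3-/- cultures by the test (-1.77 ± 0.63, adjusted p = 0.0463), although replicate 1 overlapped the day 1 values. Dropping any 1 of the 12 libraries apart from Bcl3-/- replicate 1 of either day ended that call (adjusted p = 0.0540 to 0.150), as did culture as a block (adjusted p = 0.0526). For Ptprc, which did not pass in Bcl3-/- cultures over time (-0.98 ± 0.36, adjusted p = 0.0545), the block gave adjusted p = 0.0493. Laptm5, a lysosomal membrane protein of hematopoietic cells, was at 45.5, 27.7 and 23.1 CPM in day 3 Bcl3-/-, 52.9, 43.5 and 60.3 in day 3 WT, 24.1, 36.7 and 42.8 in day 1 Bcl3-/- and 33.3, 25.2 and 38.5 in day 1 WT libraries. The tetraspanin Cd53 was at 13.1, 7.64 and 5.84 CPM in day 3 Bcl3-/-, 14.1, 12.3 and 16.0 in day 3 WT, 6.88, 9.37 and 11.8 in day 1 Bcl3-/- and 7.28, 6.37 and 8.92 in day 1 WT libraries. In WT cultures both were above their day 1 values in all 3 day 3 libraries, with adjusted p = 0.0512 for Laptm5 and 0.0178 for Cd53, and in Bcl3-/- cultures the days overlapped. The Cd53 call ended on dropping WT replicate 3 of day 3 or WT replicate 1 or 2 of day 1 (adjusted p = 0.0603 to 0.0822).

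The transcription factor PU.1 and 3 actin regulators were the group with the lowest changes in Bcl3-/- cultures: 1 of 4 was lower on day 3, and the log2 fold changes of all 4 were below 0. In WT cultures 1 of 4 was higher. Both counts lie near the shares of all genes tested, 17.2% lower in Bcl3-/- and 20.6% higher in WT cultures. Spi1, which encodes PU.1, was at 11.3, 4.18 and 3.00 CPM in day 3 Bcl3-/-, 14.8, 10.6 and 13.2 in day 3 WT, 8.04, 12.99 and 15.4 in day 1 Bcl3-/- and 14.3, 8.67 and 12.3 in day 1 WT libraries. Coro1a, the leukocyte coronin that binds actin, was at 19.6, 7.68 and 4.84 CPM in day 3 Bcl3-/-, 36.3, 28.1 and 26.4 in day 3 WT, 15.5, 28.1 and 32.2 in day 1 Bcl3-/- and 27.5, 21.4 and 22.5 in day 1 WT libraries. In both genes day 3 Bcl3-/- replicates 2 and 3 were below the other 10 libraries. Over time in Bcl3-/- cultures Coro1a had a log2 fold change of -1.21 ± 0.40 (adjusted p = 0.0343). Dropping Bcl3-/- replicate 2 or 3 of either day ended that call (adjusted p = 0.0822 to 0.127), as did culture as a block (adjusted p = 0.0530). Lcp1, the leukocyte plastin that bundles actin, was at 84.3, 48.8 and 42.1 CPM in day 3 Bcl3-/-, 124, 93.8 and 129 in day 3 WT, 46.0, 64.8 and 66.7 in day 1 Bcl3-/- and 79.0, 57.0 and 76.3 in day 1 WT libraries. It rose in WT cultures (0.71 ± 0.24, adjusted p = 0.0332), and in Bcl3-/- cultures its log2 fold change was -0.01 ± 0.24. The WT call ended on dropping WT replicate 1 or 3 of day 3 or any WT library of day 1 (adjusted p = 0.0536 to 0.138). Aif1, the IBA1 protein used as a marker of microglia and macrophages, was at 2.54, 0.648 and 0.368 CPM in day 3 Bcl3-/-, 4.05, 3.93 and 2.68 in day 3 WT, 1.69, 2.62 and 3.33 in day 1 Bcl3-/- and 9.63, 2.71 and 2.10 in day 1 WT libraries. Day 1 WT replicate 1 was the highest of the 12 libraries, and day 3 Bcl3-/- replicates 2 and 3 were the lowest.

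On day 3, which asks whether the genotypes differed after a longer induction, the 34 genes were mostly lower in cultures labelled Bcl3-/-. Log2 fold changes were negative for 32 of the 34, with a median of -0.65, against -0.00 over all genes tested. In 6 genes the difference passed the test, all 6 lower in Bcl3-/-, where 5.6% of all genes tested were lower and 4.78% higher. In 12 genes the Bcl3-/- libraries all lay below the WT libraries, where 15.6% of all genes did. The 6 were Cx3cr1, Csf1r, Cybb, Lcp1, Msr1 and Coro1a. Cx3cr1 averaged 0.914 ± 0.616 CPM in day 3 Bcl3-/- and 9.58 ± 1.77 CPM in day 3 WT libraries (SD, n = 3 each), a log2 fold change of -3.29 ± 0.42 (adjusted p = 0.00146, edgeR). Csf1r averaged 26.5 ± 6.48 CPM and 49.4 ± 7.54 CPM in the same groups, a log2 fold change of -0.90 ± 0.17 (adjusted p = 0.00824). For the other 4 the log2 fold changes were -1.29 ± 0.27 for Cybb (adjusted p = 0.0112), -0.98 ± 0.24 for Lcp1 (adjusted p = 0.0232), -0.78 ± 0.18 for Msr1 (adjusted p = 0.0180) and -1.47 ± 0.40 for Coro1a (adjusted p = 0.0356). The calls for Cx3cr1 and Csf1r held whichever library was left out. Dropping Bcl3-/- replicate 2 of day 3 ended those for Cybb (adjusted p = 0.0546), Msr1, Lcp1 and Coro1a. The Msr1 call also ended on dropping WT replicate 1 or 3 of day 3 (adjusted p = 0.0530 to 0.0770 over the 3). The Lcp1 call ended on dropping the same WT libraries or Bcl3-/- replicate 3 of day 3 (adjusted p = 0.0577 to 0.0982 over the 4). The Coro1a call ended on dropping any 1 of 6 libraries, the others being Bcl3-/- replicate 3 and WT replicates 1 and 2 of day 3 and replicate 2 of both day 1 groups (adjusted p = 0.0515 to 0.138). The count itself depended on single libraries: it was 17 on dropping Bcl3-/- replicate 1 of day 3, 2 on dropping Bcl3-/- replicate 2 of day 3 and 3 on dropping WT replicate 1 of day 3. The number lower over all genes tested moved too, from 913 to 981, 376 and 387 on dropping these libraries. In the same comparison all 10 dendritic cell and MHC class II genes described further on had negative log2 fold changes (median -1.73), as had 6 of 7 lymphocyte markers (median -1.20), none of them called, and their part in the result was not tested. With the replicate number as a block, Ptprc was called besides the 6 (-1.21 ± 0.36 and adjusted p = 0.0542 without the block, adjusted p = 0.0378 with it). Between genotypes that number is only a name, so the block pairs no cultures and the added call carries little weight.

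In other genes the day 3 libraries of the genotypes overlapped or the difference did not pass the test. Mrc1 averaged 45.7 ± 9.28 CPM in day 3 Bcl3-/- and 39.9 ± 13.5 CPM in day 3 WT libraries, a log2 fold change of 0.19 ± 0.26 (adjusted p = 0.685). The C1q chains had log2 fold changes between -0.66 and -0.40, none of them called. The largest Fc receptor difference, in Fcgr1, was -0.98 ± 0.29 (adjusted p = 0.0519), with no overlap between the groups. A p that misses the threshold does not show that the genotypes were alike in these genes.

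On day 1 fewer of the 34 genes were called, although over all genes tested 15.3% were called on day 1 and 10.4% on day 3. The median log2 fold change of the 34 genes, Bcl3-/- over WT, was -0.05, and 1 gene passed the test, lower in Bcl3-/-, where 6.26% of all genes tested were lower and 9.03% higher. That gene was Msr1, which averaged 7.20 ± 0.462 CPM in day 1 Bcl3-/- and 14.6 ± 1.16 CPM in day 1 WT libraries (SD, n = 3 each; log2 fold change -1.01 ± 0.19, adjusted p = 0.00423, edgeR). Its call held whichever library was left out, with values of 7.71, 7.06 and 6.82 CPM in the Bcl3-/- libraries and 15.7, 13.4 and 14.5 CPM in the WT libraries. Csf1r also did not overlap (16.7, 20.5 and 19.5 CPM in day 1 Bcl3-/- libraries and 26.5, 23.7 and 32.5 CPM in day 1 WT libraries) and had a log2 fold change of -0.54 ± 0.17 (adjusted p = 0.0546). The count of calls was 2 on dropping any 1 of 5 libraries, which were Bcl3-/- replicates 1 and 3 and WT replicate 2 of day 3, and Bcl3-/- replicate 1 and WT replicate 3 of day 1. On dropping either of those day 1 libraries, 1 call was higher and 1 lower in Bcl3-/-. On dropping the day 3 libraries both were lower.

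**Figure D4:**
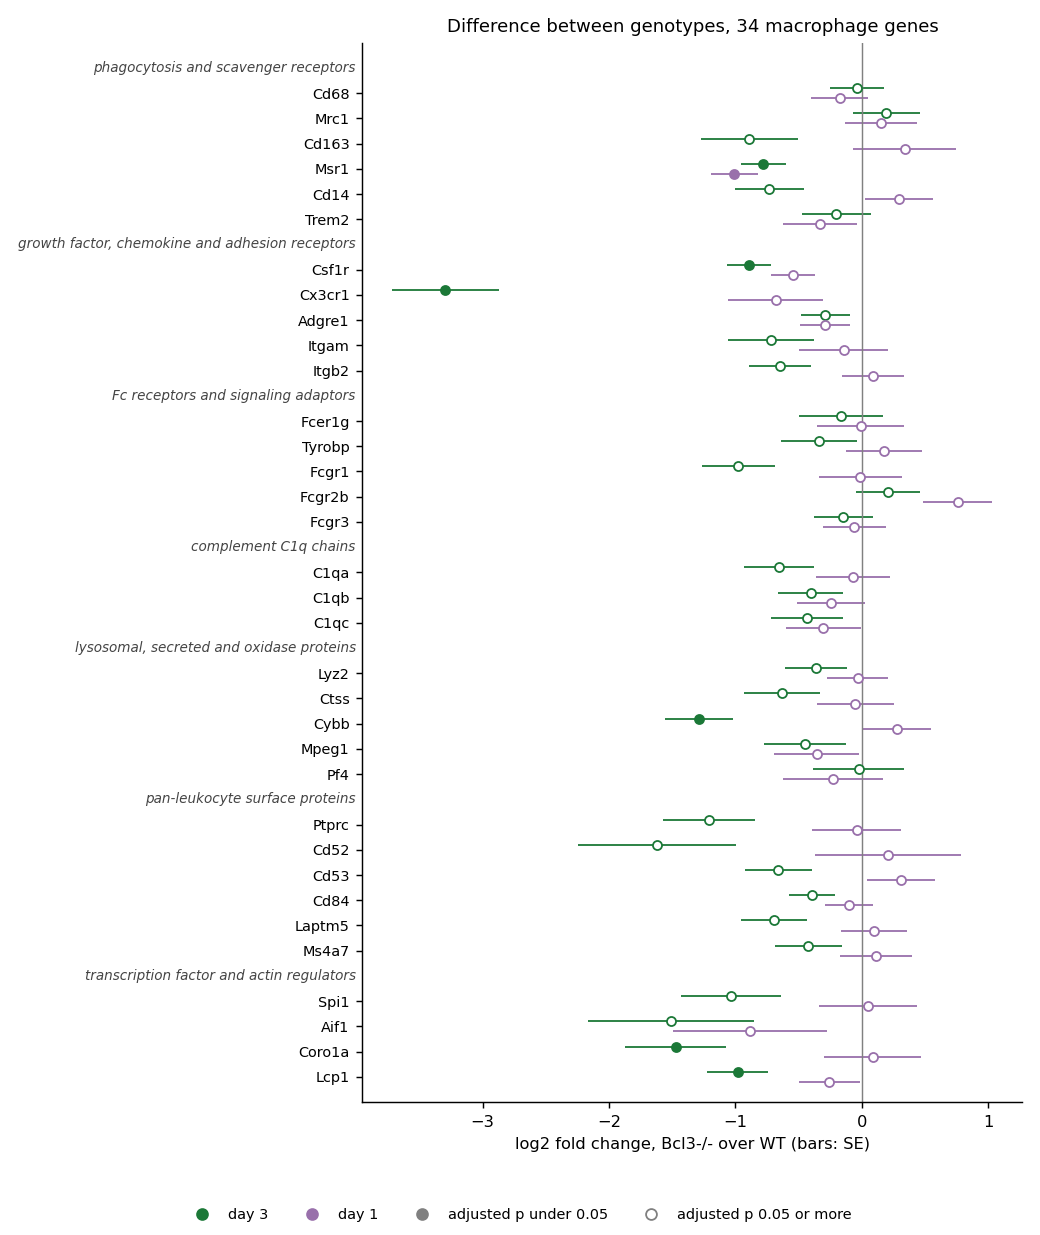
Log2 fold change, Bcl3-/- over WT, of the 34 macrophage genes on day 3 (green) and day 1 (purple), grouped by role, with bars for the standard error and filled points for adjusted p under 0.05. On day 3 all but 2 genes lay left of 0 and 6 were called; on day 1 the genes lay around a median of -0.05 and Msr1 was called.

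Whether the change over time differed between the genotypes was tested directly with the interaction term. It was negative for 28 of the 34 genes, with a median of -0.56 on the log2 scale, against -0.01 over all genes tested. It passed the test in Cx3cr1 (-2.61 ± 0.56, adjusted p = 0.0499), where 0.95% of all genes had a negative interaction by the test. Next came Cybb (-1.57 ± 0.38, adjusted p = 0.0786). Dropping any 1 of the 12 libraries, apart from Bcl3-/- replicate 1 of day 3 and WT replicate 3 of day 1, ended the Cx3cr1 call (adjusted p = 0.0586 to 0.175). So did culture as a block (log2 value -2.67, adjusted p = 0.0666). The count was 6 with Bcl3-/- replicate 1 of day 3 left out, namely Cx3cr1, Cd53, Coro1a, Cybb, Cd52 and Spi1. It was 3 with WT replicate 3 of day 1 left out and 0 with any other single library left out. Negative interactions over all genes tested moved too, from 155 to 317 and 394 where the count was 6 and 3. With any other single library left out they lay between 1 and 67. The 8 genes called over time in WT cultures and not in Bcl3-/- cultures are thus not shown to differ between the genotypes.

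The labels give each replicate a code that recurs on both days (B3, B4 and B6 for Bcl3-/- replicates 1, 2 and 3, and W1, W2 and W4 for WT), so the change can be set out code by code. With group means removed, the 34 genes of same-coded libraries correlated across genes with r between 0.36 and 0.69 in WT and between -0.56 and -0.46 in Bcl3-/-, where pairs of different codes reached 0.54. The Bcl3-/- values therefore depend on a pairing that rests on the labels and is in doubt. In culture B3, 33 of the 34 genes were higher on day 3 than on day 1, much as in W1 (33), W2 (34) and W4 (32). In B4, 19 were higher, and in B6, 17. Over all genes tested the share higher on day 3 lay between 48.7% (B6) and 50.8% (W4), and the counts in B4 and B6 lie near it. The median log2 change of the 34 genes was 1.12 in B3, 0.27 in B4 and -0.02 in B6, against 0.95 in W1, 1.22 in W2 and 1.00 in W4. Of the 34 genes, 16 were higher on day 3 in all 6 cultures, and 13 were lower in B4 and B6 while being higher in B3 (Cd14, Aif1, Tyrobp, Ptprc, Itgb2, Spi1, Laptm5, Ctss, Cybb, Cd53, Cd52, Coro1a and Lcp1). For those patterns the share over all genes is not given. Cd52 changed by 0.24 in B3, -3.38 in B4 and -4.56 in B6 on the log2 scale, while C1qb was higher on day 3 in each. Summed by role, the C1q chains changed by 1.92, 1.57 and 0.82 in B3, B4 and B6 and by 1.80, 1.91 and 1.72 in W1, W2 and W4. The pan-leukocyte surface proteins changed by 0.82, -0.35 and -0.96 in the Bcl3-/- cultures and by 0.59, 0.94 and 0.66 in the WT cultures. These are differences between single libraries, and no test was run on them.

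**Figure D5:**
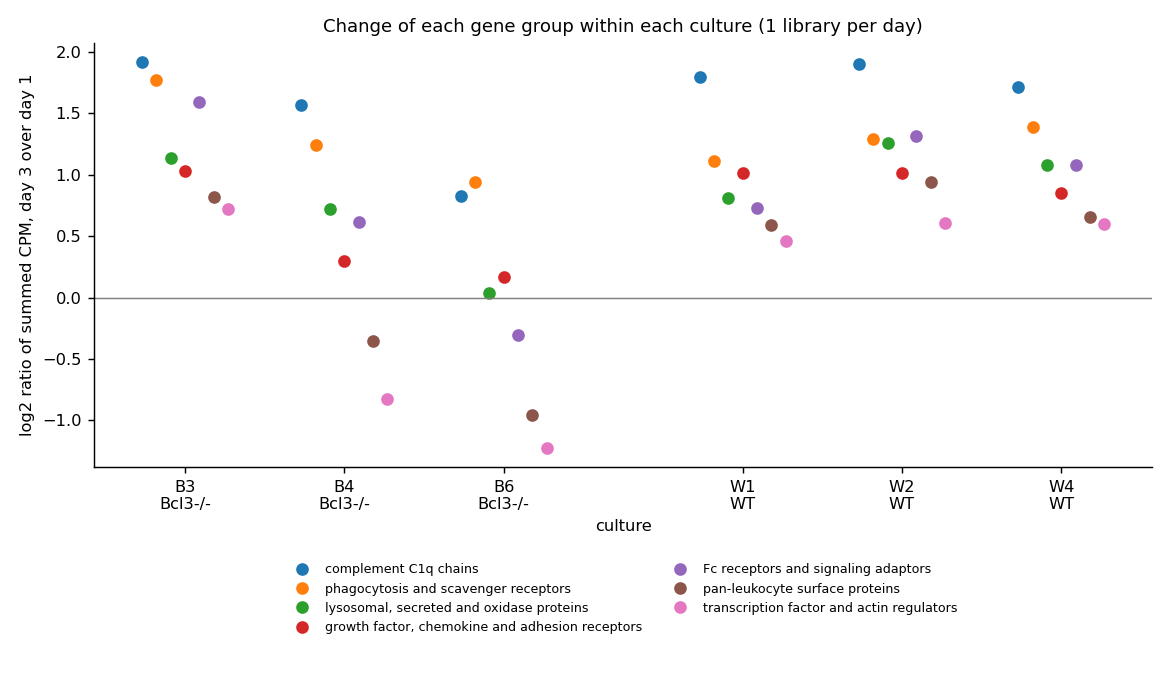
Log2 ratio of summed CPM, day 3 over day 1, for the 7 roles of macrophage genes in each of the 6 cultures (1 library per day, so no error bars). In cultures B4 and B6 the pan-leukocyte and the transcription factor and actin groups lay below 0 while the C1q chains and scavenger receptors lay above it; in B3 and the 3 WT cultures all 7 groups lay above 0.

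The day 3 Bcl3-/- replicates were ranked the same way in nearly every gene. Replicate 1 was the highest of the 3 for 33 of the 34 genes and replicate 3 the lowest for 33, where over all genes tested replicate 1 was highest for 31.5% and replicate 3 lowest for 37.4%. Replicate 3 was also the library with the fewest reads in genes, 20009732, and the part of depth in this order was not tested. In day 3 WT libraries replicate 3 was the highest for 25 of the 34 genes, against 30.3% of all genes tested. On day 1 replicate 3 was the highest for 23 of the 34 in Bcl3-/- and for 23 in WT libraries, against 29.8% and 34.1%. The spread among replicates was wider than for other genes: the median coefficient of variation of the 34 genes was 36.4% in day 3 Bcl3-/-, 19.2% in day 3 WT, 24.1% in day 1 Bcl3-/- and 24.2% in day 1 WT libraries, against 12.5%, 11.7%, 8.21% and 10.9% over all genes tested.

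Genes of dendritic cells and MHC class II presentation, some of which macrophages also express, were lowest in the same libraries as several pan-leukocyte members. A list of 10 such genes, all tested, summed to 416, 20.5 and 15.6 CPM in day 3 Bcl3-/-, 729.8, 479 and 406 in day 3 WT, 529, 1166 and 1449 in day 1 Bcl3-/- and 982, 688 and 761 in day 1 WT libraries. The 2 lowest libraries, day 3 Bcl3-/- replicates 2 and 3, were the same 2 in which Cd52, Ptprc, Spi1 and Coro1a were lowest. By code, that sum changed by -0.34, -5.83 and -6.54 on the log2 scale in B3, B4 and B6 and by -0.43, -0.52 and -0.91 in W1, W2 and W4, below 0 also in the 4 where the pan-leukocyte sum was above 0. Over time 6 of the 10 were lower in Bcl3-/- cultures, where 17.2% of all genes were lower, and in WT cultures the 10 log2 fold changes lay between -0.76 and -0.15 without passing the test. H2-Aa, an MHC class II α chain, was at 48.6, 2.40 and 1.16 CPM in day 3 Bcl3-/-, 90.1, 55.4 and 46.6 in day 3 WT, 65.5, 154 and 195 in day 1 Bcl3-/- and 134, 94.9 and 97.9 in day 1 WT libraries. Ciita, the transactivator of MHC class II genes, was at 2.86, 0.453 and 0.210 CPM in day 3 Bcl3-/-, 5.42, 3.68 and 2.63 in day 3 WT, 3.31, 6.20 and 7.12 in day 1 Bcl3-/- and 4.43, 3.57 and 4.95 in day 1 WT libraries. In Bcl3-/- cultures their log2 fold changes were -2.95 ± 0.91 (adjusted p = 0.0264) and -2.14 ± 0.61 (adjusted p = 0.0173). Among genes chosen after their values were seen, the integrin Itgax was at 2.83, 0 and 0 CPM and the cytokine receptor Flt3 at 4.72, 0 and 0.0526 CPM in day 3 Bcl3-/- libraries, against 4.82, 3.62 and 2.56 CPM and 7.71, 4.42 and 4.21 CPM in day 3 WT libraries. Lymphocyte markers, 7 of 12 tested, summed to between 0.712 and 7.74 CPM, with the same 2 libraries lowest. Of the 7, 5 were lower over time in Bcl3-/- and 4 in WT cultures, where 17.2% and 17.9% of all genes were lower. Cd79a, a chain of the B cell receptor complex, was at 0.260, 0.0972 and 0.105 CPM in day 3 Bcl3-/-, 0.352, 0.307 and 0.452 in day 3 WT, 0.455, 1.87 and 2.54 in day 1 Bcl3-/- and 1.49, 2.03 and 0.533 in day 1 WT libraries. The part of dendritic cells and lymphocytes in the changes of the 34 genes was not tested.

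Other blood and vessel cells were represented by few tested genes. Of 10 neutrophil markers 1 was tested and not called (the 10 summed to between 0.307 and 1.29 CPM), and of 7 red cell markers none was tested, with Slc4a1 at 0 in all 12 libraries. Of 7 mast cell markers 1 was tested, Kit, at 0.780, 0.324 and 0.421 CPM in day 3 Bcl3-/-, 2.96, 1.93 and 1.25 in day 3 WT, 1.64, 3.17 and 4.84 in day 1 Bcl3-/- and 3.12, 1.68 and 2.45 in day 1 WT libraries, and 3 were at 0 throughout. Kit was lower on day 3 in Bcl3-/- cultures (-2.62 ± 0.49, adjusted p = 0.00177) and lower in Bcl3-/- than in WT libraries on day 3 (-1.96 ± 0.50, adjusted p = 0.0273). Among 9 endothelial markers, 6 of them tested, Tek was the 1 called, at 14.6, 17.2 and 16.8 CPM in day 3 Bcl3-/-, 5.98, 5.09 and 7.93 in day 3 WT, 7.00, 8.08 and 4.68 in day 1 Bcl3-/- and 1.90, 2.66 and 2.48 in day 1 WT libraries, higher in Bcl3-/- on both days and higher on day 3 in both genotypes. The list did not move with it: over time in WT cultures 1 log2 fold change was positive and 5 were negative (median -0.53). In Bcl3-/- cultures 4 were positive and 2 negative (median 0.19).

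A further 50 macrophage and myeloid genes, none of them among the 34 and 49 of them tested, were read beside them. Over time 14 were higher and 5 lower in Bcl3-/- cultures (16.2% and 17.2% of all genes), and 21 were higher in WT cultures (20.6% of all genes). On day 3, 2 were lower in Bcl3-/- than in WT (5.6% of all genes), with a median log2 fold change of -0.67, and on day 1, 1 was higher (9.03% of all genes), with a median of 0.01. Those 2 counts are no larger than the shares of all genes. F13a1, the A chain of coagulation factor XIII, which resident macrophages express, was at 20.3, 22.7 and 26.2 CPM in day 3 Bcl3-/-, 18.8, 13.2 and 21.1 in day 3 WT, 4.45, 5.39 and 8.73 in day 1 Bcl3-/- and 1.13, 0.729 and 2.18 in day 1 WT libraries. It was higher in Bcl3-/- libraries on day 1 (2.19 ± 0.36, adjusted p = 0.00248). Fcrls, an Fc receptor-like molecule known from microglia, was at 20.4, 15.9 and 11.0 CPM in day 3 Bcl3-/-, 23.3, 21.6 and 36.5 in day 3 WT, 3.64, 3.24 and 2.73 in day 1 Bcl3-/- and 2.04, 1.80 and 5.14 in day 1 WT libraries. Both exceeded their day 1 values in every day 3 library.

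Growth factors and chemokines that feed and draw macrophages were measured in the same libraries. Csf1, the ligand of Csf1r, was at 559.6, 634 and 738 CPM in day 3 Bcl3-/-, 726, 563 and 604 in day 3 WT, 721, 753 and 781 in day 1 Bcl3-/- and 1198, 992 and 934 in day 1 WT libraries. It was lower on day 3 than on day 1 in WT cultures (-0.72 ± 0.12, adjusted p = 6.74e-04) and lower in Bcl3-/- than in WT on day 1 (-0.47 ± 0.12, adjusted p = 0.0230). Il34, the second ligand, chosen after its values were seen, was higher on day 3 in both genotypes (0.88 ± 0.20 in Bcl3-/- and 0.79 ± 0.20 in WT, adjusted p = 0.00525 and 0.00844). Kitl, the ligand of Kit, was at 11.1, 9.91 and 15.0 CPM in day 3 Bcl3-/-, 6.58, 8.35 and 7.30 in day 3 WT, 12.2, 9.68 and 11.0 in day 1 Bcl3-/- and 12.7, 12.1 and 12.6 in day 1 WT libraries, lower on day 3 in WT cultures (-0.75 ± 0.15, adjusted p = 0.00220). The growth factor list also held genes of receptors. Its 8 tested genes were Csf1, Il34, Kitl, Tgfb1 and the receptor genes Csf2ra, Csf2rb, Csf2rb2 and Csf3r. Of these 8, 1 was higher over time in Bcl3-/- cultures, and 1 was higher and 2 lower in WT cultures. Of 10 monocyte chemoattractants, 3 were higher and 1 lower over time in Bcl3-/- cultures, and 4 were higher and 1 lower in WT cultures. Over all genes tested 16.2% were higher and 17.2% lower in Bcl3-/- cultures, and 20.6% and 17.9% in WT cultures. The counts of the growth factor list, receptors included, lie near those shares. Cxcl12, which retains myeloid and other hematopoietic cells in marrow, was at 452, 688 and 621 CPM in day 3 Bcl3-/-, 281, 341 and 300.0 in day 3 WT, 201, 247 and 228 in day 1 Bcl3-/- and 73.5, 80.1 and 92.2 in day 1 WT libraries. Ccl8, a chemokine for monocytes, was at 3.25, 3.92 and 1.47 CPM in day 3 Bcl3-/-, 1.55, 1.87 and 2.06 in day 3 WT, 0.480, 0.511 and 0.922 in day 1 Bcl3-/- and 0.0905, 0.182 and 0.320 in day 1 WT libraries. Both rose over time in both genotypes. Among osteoclast markers, which the same lineage can express, 5 of 11 tested were higher and 2 lower over time in Bcl3-/- and 5 higher and 1 lower in WT cultures, where the same shares of all genes apply. The acid phosphatase Acp5 was at 19.6, 20.2 and 17.8 CPM in day 3 Bcl3-/-, 12.5, 18.8 and 19.3 in day 3 WT, 5.97, 7.40 and 8.73 in day 1 Bcl3-/- and 4.48, 4.85 and 5.65 in day 1 WT libraries. Cathepsin K (Ctsk), which osteoblast-lineage and other stromal cells can also transcribe, was at 386, 396 and 377 CPM in day 3 Bcl3-/-, 244, 317 and 334 in day 3 WT, 205, 175 and 199 in day 1 Bcl3-/- and 126, 127 and 159.8 in day 1 WT libraries.

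Within groups, several of the genes that varied most like the mean of the 34 are known from leukocytes. With each group's mean removed, Pearson's r over the 12 libraries was among the highest for Icosl (0.97), Ceacam1 (0.96), Rgs18 (0.96), Myo1f (0.95), Hspa1a (0.95), Epcam (0.95), Apobr (0.95), Inpp5d (0.95) and Igsf6 (0.94). Inpp5d encodes the hematopoietic phosphatase SHIP1 and Myo1f a leukocyte myosin, whereas Hspa1a is a heat shock protein and Epcam an epithelial adhesion protein. All genes were read in the same libraries, which shared a preparation and differed in depth, so these values describe likeness only. Of the 34 genes themselves, each against the mean of the others, r ran between 0.22 for Pf4 and 0.96 for Cd68, with Cd53 at 0.94, Laptm5 at 0.90 and Fcgr3 at 0.90, and Mrc1 lower at 0.57 and Cd163 at 0.42.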

How the data were processed

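Polyadenylated RNA from calvarial cultures (12 libraries, coded as 6 cultures on 2 days) was amplified to cDNA with a SMART-seq kit, which does not mark strand, and sequenced. Per the labels, the authors trimmed reads with Trim Galore, aligned them with TopHat2 to GRCm38 (mm10) and counted reads per gene with HTSeq, and deposited these raw counts. They also deposited FPKM values made with Cufflinks. Versions and strand settings are not given in the sources used here. Entries outside genes (5, holding 12.27% to 14.72% of all entries' reads) were left out, as were 49 FPKM entries with several values and 1 stray header line, which left 49318 genes with FPKM. Symbols and positions came from GENCODE annotation of GRCm38 (49326 IDs matched) and promoter sequences from RefSeq on GRCm38.p6. No pair of the 66 library pairs agreed within sampling noise (lowest chi-square per gene 9.402).

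Counts were filtered with filterByExpr, scaled by TMM (factors 0.9507 to 1.053) and fitted with edgeR 4.0.16 (R 4.3.3) by its quasi-likelihood test, with the 4 groups in 1 model, 5 contrasts and Benjamini-Hochberg adjustment over 16318 genes at 0.05. The fit was tested on simulated data. Standard errors are those of the log2 fold change. Sums of CPM got no test. The 34 genes, the comparison lists and the tests were chosen with earlier results of these data known. Values are given for every one of the 34, and from each other list for up to 2 genes with the smallest adjusted p in any contrast, or the 2 highest where none was called. Among the genes most like the 34, 1 is not reported here. Alternatives were DESeq2 1.42.0, other scaling and filters, the replicate number or culture as a block, limma 3.58.1 on log2(FPKM + 1) and log2(FPKM + 0.1), and leaving out each library. Leaving out both libraries of a culture was added after seeing the data.

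The labels' culture codes recur on both days, and they were taken to pair the days, which the sources used here do not state. With group means removed, libraries of 1 code correlated over all genes with r between 0.24 and 0.33 in WT cultures and between -0.16 and -0.02 in Bcl3-/- cultures, so the Bcl3-/- pairing is in doubt. Between genotypes a replicate number is only a name (r between -0.06 and 0.04 on day 1 and between 0.06 and 0.21 on day 3).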

Additional observations from a re-analysis of the deposited data

Results flagged for a closer look

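The change of Cx3cr1 over time differed between the genotypes by the interaction test, with a log2 value of -2.61 (Bcl3-/- less WT; adjusted p = 0.0499, edgeR). It was at 1.17, 1.36 and 0.210 CPM on day 3 and 2.60, 1.77 and 3.10 CPM on day 1 in Bcl3-/- cultures, lower on day 3 in 3 of 3 cultures, and at 10.8, 7.55 and 10.4 CPM on day 3 and 3.21, 3.03 and 5.73 CPM on day 1 in WT cultures, higher on day 3 in 3 of 3. The call held in 6 of 26 alternatives, whose adjusted p ran between 1.77e-04 and 0.254. Groups of 3 libraries were not tested for single outlying libraries.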

How the results depend on the processing

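Of 52 calls on single genes, 25 held under every alternative and 0 changed sign. The count of macrophage genes called between genotypes on day 1 was 1, and it was 3 with DESeq2 and without a low count filter, 2 where genes needed 1 CPM in 6 libraries, with only the libraries compared and without both libraries of culture B3 or W4, and 0 with log2(FPKM + 1) or log2(FPKM + 0.1) (limma); leaving out 1 library gave 1 to 2. Between genotypes on day 3 it was 6, and it was 16 without a low count filter, 3 with only the libraries compared or either FPKM scale, 15 without both libraries of culture B3, 1 without B4, 3 without B6 or W4 and 2 without W1; leaving out 1 library gave 2 to 17. Over time in WT cultures it was 25, with 16 on log2(FPKM + 0.1) and 16 to 26 without 1 library. Over time in Bcl3-/- cultures it was 19, with 10 on log2(FPKM + 1), 11 on log2(FPKM + 0.1), 12 without both libraries of culture B4 and 12 to 19 without 1 library. For the interaction it was 1, with 2 in DESeq2, 3 without a low count filter, 0 where genes needed 1 CPM, 0 with the replicate block and 0 on any of the 3 FPKM settings, 8 without both libraries of culture B3, 3 without W4, 0 without B4, B6, W1 or W2, and 0 to 6 without 1 library. Counts over all genes tested moved across these settings too. Those lower in Bcl3-/- on day 3 lay between 245 and 1269, and negative interactions between 0 and 472. The causes of these shifts were not tested. The replicate block, culture over time and number between genotypes, gave 1 on day 1, 7 on day 3, 25 over time in WT and 18 in Bcl3-/- cultures, and changed no call beyond those named beside their genes. The log2 ratios of summed levels kept their sign, apart from day 1, where Bcl3-/- over WT lay between -0.22 and 0.06 without 1 library; those on day 3 lay between -0.80 and -0.28, over time in Bcl3-/- between 0.29 and 0.80, and in WT between 0.84 and 1.15. Cx3cr1, Cd163, Aif1 and Cd52 fell to 4, 7, 7 and 9 reads in single libraries, which limits their precision.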
